A study of Drosophila melanogaster with 24 samples.

Results

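The *Drosophila* genome holds a second copy of many respiratory chain genes that is named for its likeness to the general one, and 10 such genes, known as testis paralogs, were examined here beside their general paralogs. The members were taken by symbol and are *Cyt-c-d*, *COX4L*, *COX5BL*, *COX7AL*, *ND-20L*, *ND-24L*, *ND-51L1*, *ATPsynbetaL*, *SdhAL* and *SdhBL*. Each was set against the gene whose symbol lacks the final L (*ND-51* for *ND-51L1*, and *Cyt-c-p* for *Cyt-c-d*). Of the 10 members, 9 were listed on every day among 12714, 12996, 12961 and 12620 genes on days 0, 1, 3 and 5, and *COX5BL* was listed on no day. In total, 13395 genes were listed on at least 1 day.

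RNA came from adult testes in which *nanos-Gal4* (*nos-Gal4*), a driver active in early germ cells, expressed an RNAi transgene against *Set1* (*Set1* KD) or against mCherry, a sequence the fly does not carry (Ctrl KD). Flies of both groups carried the same driver, developed at 18°C and, once eclosed, were aged at 25°C for 0, 1, 3 or 5 days. There were 3 libraries of each genotype at each day, 24 in all, each from about 15 pairs of testes. The testes were dissociated, filtered and pelleted before polyadenylated RNA was isolated. *Set1* encodes a methyltransferase of histone H3 lysine 4, and the study asked what its loss in early germ cells does to gene expression in the testis. The value used here for each gene and day is the authors' mean normalized count over the 6 libraries of that day, both genotypes together. It therefore carries no spread between replicates, the knockdown of *Set1* in each library could not be checked, and no test between genotypes or days was made. In the text, a level is always such a mean, and a difference between levels is a description.

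The respiratory chain passes electrons from NADH (complex I, the ND genes) and succinate (complex II, the Sdh genes) by way of complex III and the mobile carrier cytochrome c to cytochrome c oxidase (complex IV, the COX genes), and ATP synthase (complex V) uses the proton gradient that results. In fly spermatids, the mitochondria fuse into a large paired body, the nebenkern, and then elongate along the growing sperm tail. *Cyt-c-d* is known for its part in caspase activation when spermatids shed their cytoplasm and separate into single sperm, and *Cyt-c-p* is the cytochrome c of respiration in most tissues.

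The gene models of the pairs were compared first, since they also set the lengths by which levels of different genes can be compared. By Ensembl annotation of the same genome release (dm6), 4 of the 10 testis paralogs had no intron in the transcript with the longest coding part, against 0 of the 10 general paralogs. The 4 genes were *ND-20L*, *ND-24L*, *ND-51L1* and *SdhAL*. In 8 of the 10 pairs the testis paralog had fewer introns than the general one, and in 2 pairs (*Cyt-c-d* and *SdhBL*) it had the same number. The widest gap was that of *SdhAL*, with 0 introns against 4 in *SdhA*. Within the coding part alone, 6 testis and 2 general paralogs had no intron.

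Members of 3 pairs lay on the same chromosome arm as their general paralog. *Cyt-c-d* (chromosome 2L, 16715891 to 16719635) ended 296 bases before *Cyt-c-p* (16719932 to 16722644), and both are read from the plus strand. *COX5BL* (chromosome 2L, 6559431 to 6560133) began 122 bases after *COX5B* (6557800 to 6559308), also on the plus strand. *COX7AL* (chromosome 3R, 8343669 to 8344310) and *COX7A* (8339944 to 8341043) were 2625 bases apart on opposite strands. The other members lay on other arms than their partners: *COX4L* (5353994 to 5354723) and *ND-51L1* (17595267 to 17597409) on 2R, *ND-20L* (29515717 to 29516527) on 3R, *ND-24L* (17319969 to 17320811), *ATPsynbetaL* (16097834 to 16100088) and *SdhAL* (11922610 to 11924757) on 3L, and *SdhBL* (18894446 to 18896581) on X. Their partners *ND-20* and *ND-24* are both on X, *COX4* and *ND-51* on 2L, *SdhA* and *SdhB* on 2R, and *ATPsynbeta* on chromosome 4.

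The annotated proteins of the pairs were close in length in 6 cases, from 10 residues shorter (*SdhAL*, 651 residues against 661) to 8 residues longer (*COX7AL*, 106 against 98). *Cyt-c-d* encodes 105 residues and *Cyt-c-p* 108. The other 4 members were longer by more. *ND-51L1* encodes 702 residues against 474 in *ND-51*, *SdhBL* 437 against 297 in *SdhB*, *ATPsynbetaL* 622 against 511 in *ATPsynbeta*, and *COX5BL* 154 against 120 in *COX5B*.

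**Figure D1:**
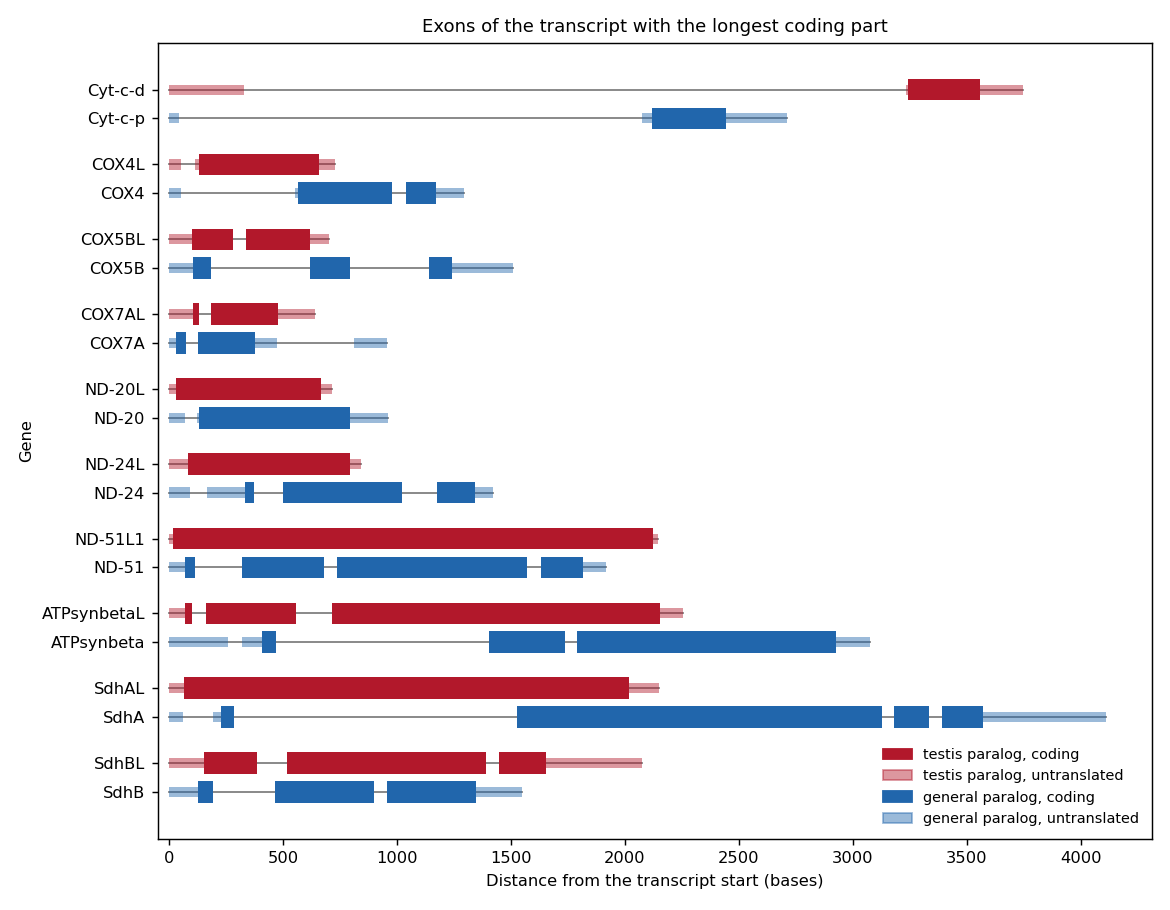
Exons of the transcript with the longest coding part for each of the 10 pairs, drawn to scale as distance in bases from the transcript start (x axis), with 1 gene per row (y axis). Tall boxes are coding, low boxes untranslated, lines are introns, red marks testis paralogs and blue general paralogs. *ND-20L*, *ND-24L*, *ND-51L1* and *SdhAL* are single unbroken boxes, whereas every general paralog has at least 1 intron.

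*COX5BL*, the paralog of a complex IV subunit, had no value on any day, under its symbol or under the older symbols RefSeq gives for it. All 647 of its exon bases are also exon bases of *Trmt6*, a tRNA methyltransferase subunit gene on the opposite strand, which the tables list under the older symbol *CG9596* at 36.2, 51.8, 88.4 and 60.7 mean normalized counts on days 0, 1, 3 and 5. Of 76 protein-coding genes of the annotation whose every exon base is shared with genes of the opposite strand, 1 (1.32%) was listed on any day. The corresponding share was 85.0% of 9194 genes that share no exon base with another gene, and 84.9% of all 13986 protein-coding genes. Genes in the position of *COX5BL* were thus rarely listed at all, and its absence from the tables says nothing about its level. Whether the overlap is what kept it out was not tested. Its general paralog *COX5B* was at 968, 1265, 1800 and 1333 mean normalized counts. Among the listed members, only *Cyt-c-d* shares exon bases with another gene (305 of 837, with *CG31808* on the opposite strand).

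By level per exon length, the carrier and the complex IV paralogs were the most abundant members. *Cyt-c-d* was at 10586, 13271, 13643 and 11932 mean normalized counts on days 0, 1, 3 and 5. *Cyt-c-p* was at 1096, 1324, 2186 and 1598 on the same days. Per base of exon, *Cyt-c-d* was 7.86, 8.15, 5.08 and 6.08 times as high as *Cyt-c-p*. By RNA level, *Cyt-c-d* was thus the more abundant of both by a wide margin on every day. When the length of *Cyt-c-d* was restricted to the exon bases it does not share with *CG31808*, the ratios were 12.4, 12.8, 7.99 and 9.56. The count itself was left unchanged, so these ratios are too high if reads from the shared bases were counted for *Cyt-c-d*.

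*COX4L*, the paralog of a complex IV subunit encoded in the nucleus, was at 14741, 17361, 16412 and 15052 mean normalized counts on days 0, 1, 3 and 5, and per exon length it was the highest of all members. *COX4* was at 813, 1307, 1844 and 1330. The ratio per exon length was the largest of the 9 pairs on each day, at 30.6, 22.4, 15.0 and 19.1. Its size depends on the annotated untranslated ends of *COX4*, since by coding length the ratios were 18.7, 13.7, 9.20 and 11.7. *COX7AL*, the paralog of a small complex IV subunit, was at 5419, 7216, 6354 and 5237 mean normalized counts, against 1761, 2181, 2892 and 2215 for *COX7A*. The ratio of this pair per exon length lay between 2.61 at day 3 and 3.93 at day 1.

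All 3 complex I members exceeded their general paralog on every day. *ND-24* and *ND-51* encode subunits of the NADH-binding arm, and *ND-51* carries the flavin that takes up the electrons, while *ND-20* holds an iron-sulfur cluster near the site of quinone reduction. *ND-24L* was at 3995, 5227, 4468 and 3442 mean normalized counts on days 0, 1, 3 and 5, against 1004, 1349, 1602 and 1237 for *ND-24*. The ratio per exon length was 5.02, 4.89, 3.52 and 3.51. *ND-20L* was at 2021, 2643, 2214 and 1587, against 479, 649, 888 and 688 for *ND-20*. Its ratio was 7.19, 6.93, 4.25 and 3.93, and by coding length 4.40, 4.24, 2.60 and 2.41. The ratio of the third pair was closer to 1: *ND-51L1* was at 1497, 2554, 2399 and 1746 mean normalized counts, *ND-51* at 617, 988, 1296 and 992, and the ratio per exon length ranged from 1.31 at day 5 to 1.92 at day 1.

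The succinate dehydrogenase pairs differed from each other. *SdhBL*, the paralog of the iron-sulfur subunit, was at 5502, 8907, 8293 and 6202 mean normalized counts on days 0, 1, 3 and 5, and *SdhB* at 386, 588, 921 and 664. Per exon length *SdhBL* was 8.92, 9.48, 5.63 and 5.84 times as high. *SdhAL*, the paralog of the flavoprotein subunit, was at 4602, 6853, 5689 and 4115, and *SdhA* at 4605, 7989, 7675 and 5241. The ratio of that pair per exon length was 1.28, 1.10, 0.949 and 1.01, and on 3 of the 4 days it fell on the other side of 1 when another length, or none, was used. No order of *SdhAL* and *SdhA* can therefore be read from these values.

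*ATPsynbetaL* was the 1 listed member below its general paralog on all 4 days. *ATPsynbeta* encodes the catalytic beta subunit of ATP synthase and was at 3437, 4313, 7790 and 5933 mean normalized counts on days 0, 1, 3 and 5. *ATPsynbetaL* was at 1653, 2045, 2237 and 2088, and the ratio per exon length was 0.564, 0.556, 0.337 and 0.413. Of the 9 pairs, 8 had a ratio above 1 at days 0, 1 and 5, and 7 at day 3, with a median of 5.02, 4.89, 3.52 and 3.51 on the 4 days. The pair that changes this count is that of *SdhAL* and *SdhA*. Without length, 7 pairs were above 1 on every day, and by coding length 8 at day 0 and 7 on the later days.

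**Figure D2:**
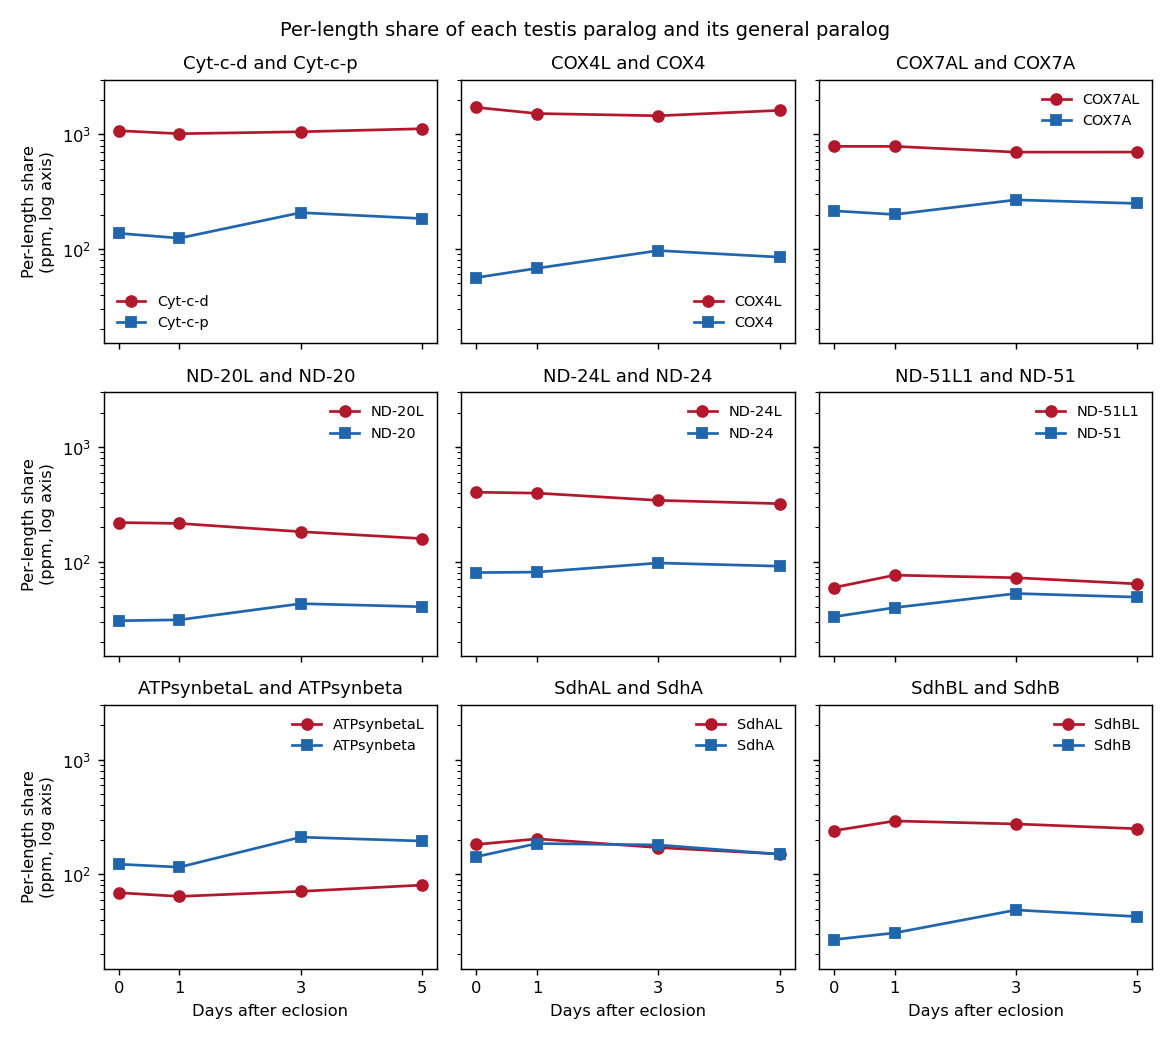
Per-length share of each listed testis paralog (red circles) and its general paralog (blue squares) by days after eclosion (x axis). The y axis is logarithmic and gives the authors' mean normalized count per exon base, scaled so that all genes of a day sum to 1000000 (ppm), with no error because each point is 1 deposited mean over 6 libraries. *ATPsynbetaL* lies below its partner throughout, *SdhAL* and *SdhA* nearly coincide, and the other 7 testis paralogs lie above theirs.

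To place the members among all genes, levels were divided by exon length and scaled to a sum of 1000000 per day, so that shares are in parts per 1000000 (ppm). This share is comparable between genes within a day. By share, *COX4L* was first among the members (1455 to 1720 ppm over the 4 days), then *Cyt-c-d* (1014 to 1121), *COX7AL* (700.4 to 786), *ND-24L* (321 to 404) and *SdhBL* (240.4 to 292), and none of these ranges overlapped the next. *ND-20L* (159 to 219.5) and *SdhAL* (151 to 204) overlapped over the days, although *ND-20L* was higher on each of the 4 days. *ATPsynbetaL* (64.3 to 80.6) and *ND-51L1* (59.5 to 76.2) also overlapped, and each was the higher of both on 2 days. The range over days is not a spread between replicates.

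*COX4L* stood at percentile 99.4 to 99.5 of all genes with a length, *Cyt-c-d* at 99.0 to 99.1 and *COX7AL* at 98.3 to 98.6. The members with the lowest shares, *ND-51L1* and *ATPsynbetaL*, were at 79.1 to 82.1 and 80.2 to 82.1. The median share of the 9 listed members was 240.4, 292, 275 and 250.1 ppm on days 0, 1, 3 and 5. The general list of nuclear-encoded subunits, of whose 72 names 68 were listed, had medians of 133, 139, 162 and 152, and the median over all genes was 9.95, 9.25, 10.5 and 11.3.

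Summed over the 9 listed pairs, the testis paralogs took 4759, 4571, 4326 and 4468 ppm on days 0, 1, 3 and 5. The general paralogs took 845, 877, 1207 and 1088. The testis paralogs made up 84.9%, 83.9%, 78.2% and 80.4% of the per-length level of both sets. *COX4L* weighed most in this figure. Without that pair the percentages were 79.4, 79.0, 72.1 and 73.9.

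The ratio of a pair does not depend on how a day was scaled, so it can be followed over the days although the authors normalized each day on its own. All 9 pairs had a lower ratio at day 3 than at day 0, and all 9 at day 5 than at day 0. At day 1, 5 pairs were lower and 4 higher than at day 0. From day 0 to day 3, the ratio of *COX4L* to *COX4* moved most, to 0.491 of its value, and that of *ND-51L1* to *ND-51* least, to 0.763. The lowest ratio was found at day 3 in 6 pairs and at day 5 in the 3 complex I pairs.

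Other subunit genes with an L in their symbol were compared in the same way. The tables list 10 of them beside the members, and for 7 the symbol without the L is listed: *ATPsynCF6L*, *ATPsynGL*, *Cyt-c1L*, *ND-49L*, *ND-51L2*, *ND-B14.5AL* and *UQCR-11L*. All 7 exceeded their general paralog per exon length on every day, with medians of 3.80, 3.15, 2.18 and 2.42. *UQCR-11L*, a complex III paralog, had the highest ratio at 13.1, 15.6, 10.3 and 9.27. Among these 7 pairs, too, 7 had a lower ratio at day 3 than at day 0 and 7 at day 5. The rest of the 10 had no ratio and are not in this count. Their own shares differed between days 3 and 0 by a log2 of 0.73 (*ATPsynepsilonL*), 0.06 (*COX6AL*) and -0.44 (*UQCR-14L*). *ND-51L2* is set against *ND-51*, as *ND-51L1* is, so these 2 pairs are not independent of each other. All pairs, those of the members included, also rest on the same libraries of each day. A count of pairs is therefore not a count of independent repeats. *ND-51L2* was 2.32, 2.23, 1.65 and 1.60 times as high as *ND-51*.

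**Figure D3:**
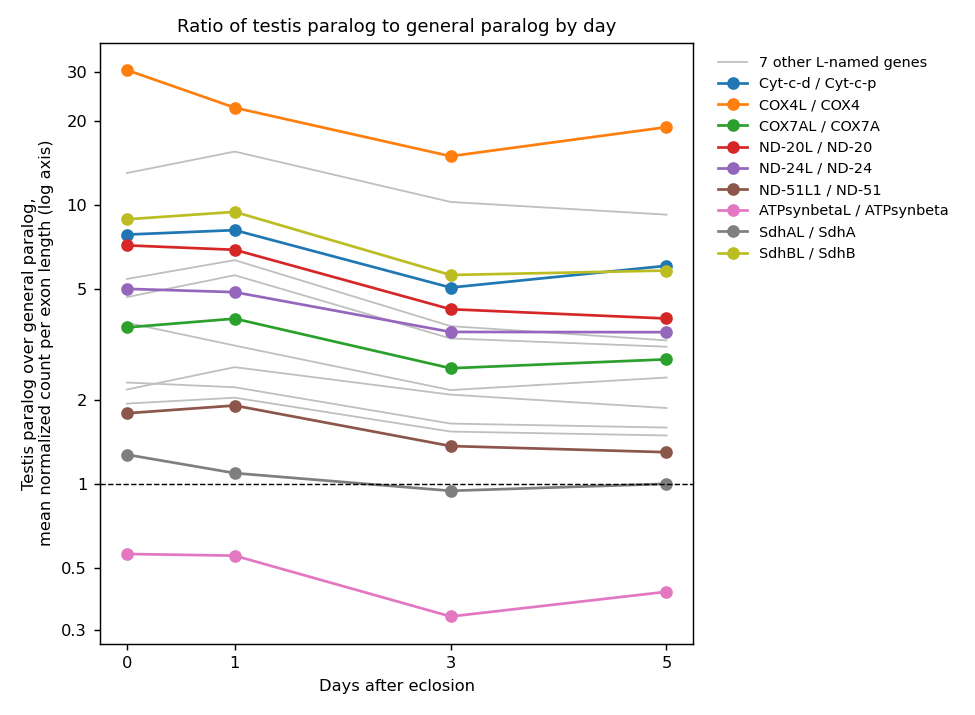
Ratio of testis paralog to general paralog, in mean normalized count per exon length, by days after eclosion (x axis), on a logarithmic y axis, for the 9 listed pairs (coloured points, each from 1 deposited mean per gene) and 7 other L-named genes (grey lines). The dashed line marks equal levels. Every line is lower at days 3 and 5 than at day 0, and the lines of *ATPsynbetaL* and, at day 3, *SdhAL* lie below 1.

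The change of the ratios was divided between both sides of each pair, using the share in ppm. Shares rest on tables that were normalized separately, and their sum sets the scale. At day 3, the share of all 10 general paralogs was higher than at day 0, with log2 differences from 0.28 for *ND-24* to 0.86 for *SdhB* and a median of 0.55. *COX4* (0.78), *ATPsynbeta* (0.78), *ND-51* (0.67) and *Cyt-c-p* (0.60) were also well above the median of all genes, which was 0.12. The testis paralogs had a median of -0.09, with 3 higher and 6 lower than at day 0. Relative to the median gene, 2 were higher and 7 lower, and all 10 general paralogs were still higher. *ND-20L* (-0.27), *COX4L* (-0.24) and *ND-24L* (-0.24) were the lowest, and *ND-51L1* (0.28) the highest. Over the 12067 genes with a mean of at least 10 on all days, 64.1% were higher at day 3 and 35.9% lower. For *SdhB*, 96.9% of these genes had a smaller log2 difference, and for *ND-20L* 15.7% had.

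At day 5, the general paralogs had a median log2 difference from day 0 of 0.42, with all 10 higher (9 relative to the median gene). The testis paralogs had a median of -0.09, with 4 higher and 5 lower (2 and 7 relative to the median gene). *ND-20L* was the lowest member (-0.46), followed by *ND-24L* (-0.33) and *SdhAL* (-0.28), and *ATPsynbetaL* was the highest (0.22). The median of all genes was 0.08, with 59.6% higher and 40.4% lower. For *Cyt-c-d* (0.06), *SdhBL* (0.06) and *SdhA* (0.07) the sign at day 5 turned when the days were scaled by the median gene. The general subunit list had median log2 differences from day 0 of 0.01, 0.28 and 0.15 on days 1, 3 and 5, with 60 of 68 genes higher and 8 lower at day 3. Relative to the median gene, the count at day 3 was 49 higher and 19 lower. At day 5, 55 of the 68 were higher, and 42 relative to the median gene.

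**Figure D4:**
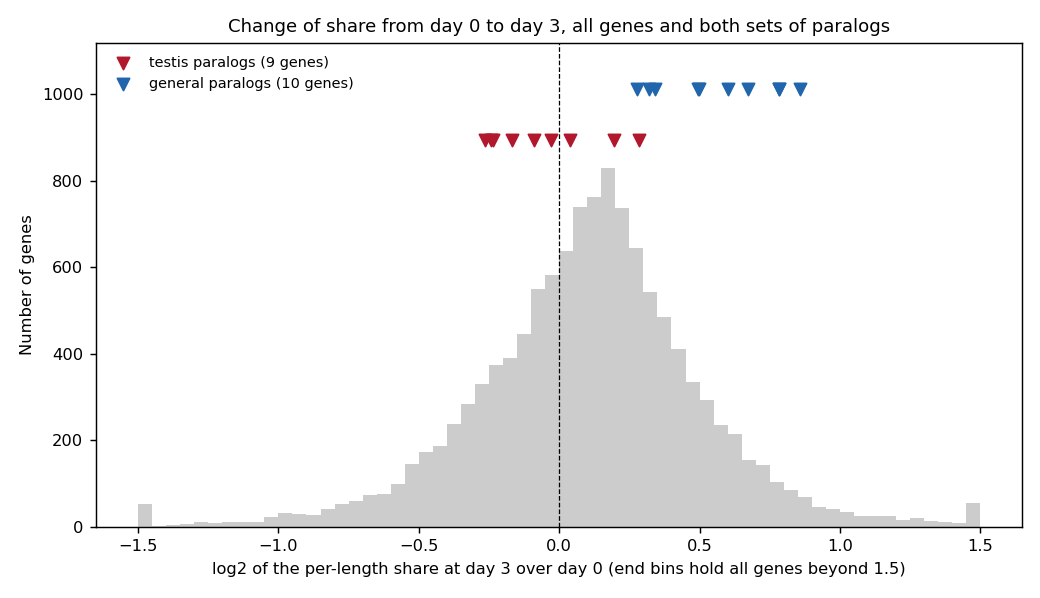
Number of genes (y axis) by the log2 of the per-length share at day 3 over day 0 (x axis), for 12067 genes (grey bars), with the 9 listed testis paralogs (red triangles) and the 10 general paralogs (blue triangles) marked above at their values. The general paralogs lie between 0.28 and 0.86, and the testis paralogs between -0.27 and 0.28.

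Cell type markers moved over the same days. Of 6 early germline markers, 6 were listed, and their summed share was 40.5, 42.4, 55.9 and 53.5 ppm on days 0, 1, 3 and 5. The 12 markers of spermatocytes and later germ cells, all listed, summed to 13261, 13257, 12038 and 12089. This sum rests mostly on a few abundant genes such as *Mst87F* (3792 ppm at day 0) and *Mst84Da* (3478). By gene, 7 of the 12 were higher at day 3 than at day 0 and 5 lower, against 64.1% of all genes higher. Relative to the median gene, 6 were higher and 6 lower at day 3. At day 5 the counts were 6 and 6 by share and relative to the median gene. The 4 cyst cell markers summed to 26.9, 26.5, 33.2 and 32.7, and the 4 hub markers to 23.9, 27.0, 24.4 and 22.8. The cyst cell sum rests mostly on *eya* (21.4 ppm at day 0). Higher at day 3 than at day 0 were 6 of 6 early germline, 4 of 4 cyst cell and 3 of 4 hub markers. Relative to the median gene, these counts were 6, 4 and 2. The 5 sheath muscle markers summed to 1765 at day 0 and 656 at day 5, the 3 haemocyte markers to 2.26 and 22.5, and the 3 fat body markers, without *Yp1*, to 9.86 and 7.66. The accessory gland markers summed to 179, 118, 6.84 and 30.3 ppm on days 0, 1, 3 and 5. Of these, *Acp26Aa* and *Acp36DE* were listed on all 4 days, but *SP* (named in the list also by its older symbol *Acp70A*) and *Acp53Ea* on days 0 and 1 alone, so the later sums hold fewer genes. Markers of spermatocytes and later germ cells had the highest sum on every day, and transcripts of muscle and accessory gland were present too, so the libraries, labelled as testis germ cells, did not hold RNA of germ cells alone. The part of these shifts in the ratios was not tested. In such bulk RNA, fewer cells of a type and less RNA per cell cannot be told apart, and neither can the age of the flies and the knockdown, since each day's mean holds both genotypes.

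Of the 9 listed members, *COX7AL* and *ND-24L* lay within 0.1 of their mean profile over the 4 days, and *SdhBL* and *Cyt-c-d* (both 0.101) just beyond it. The 3 genes nearest to this mean profile, by the root mean square difference of centred log2 shares, were *TkR99D* (0.00429), *CG34367* (0.00625) and *DNApol-eta* (0.0110). Of 12058 other genes, 2794 lay within 0.1 of it, a share close to that of the members. *COX7AL* lay nearest to the mean profile among the members (0.0399) and *ATPsynbetaL* farthest (0.170).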

How the data were processed

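According to the study's methods and the submitters' processing notes, the authors mapped reads with Bowtie 2 (version 2.5.1) to the fly genome (BDGP Release 6, dm6), summarised them to RefSeq genes with featureCounts and analysed each day separately with DESeq2. The kit was directional. The strand setting of the counting and the filter on low genes are not given in the sources used here. The deposited mean normalized count is a signal made by the authors with size factors from the 6 libraries of a day, 3 Ctrl KD and 3 *Set1* KD. The lowest was 4.96 at day 5. The other deposited columns hold the authors' own comparison of the genotypes (log2 fold change, standard error, statistic and p-values) and were left unused by choice. Depth per library is unknown, and the means alone give no interval or test.

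Means were divided by merged exon length from Ensembl release 115 (dm6). Of 13395 symbols, 13375 matched, 15 mitochondrial genes took their RefSeq span and 5 had no length. Symbols, older symbols included, were matched through RefSeq. Differences between days used genes with a mean of at least 10 on all days. Alternatives were other lengths, other totals and a median scaling. Genes were named by membership, by symbol pattern, by fixed lists of subunits and cell type markers, and as the 3 nearest profiles. The members and lists were chosen with earlier results of these data known. The formulas were tested on simulated data. Python 3.11.15, numpy 2.4.6, pandas 2.3.3 and matplotlib 3.10.9 were used. Sequences were not analysed here.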

Additional observations from a re-analysis of the deposited data

How the results depend on the processing

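No paired analysis was possible because the values used are means over the libraries of a day. Of 195 values recomputed under an alternative, 162 kept their side of 1 (ratios) or 0 (log2 differences) and stayed within 1.5 times of the ratio, count, percentage or fold between days, 24 moved further and 9 changed side. For a log2 difference this tolerance is a shift in the fold, so small differences could move by more than 1.5 times of themselves: scaled by the median ratio, that of *ND-51L1* at day 5 went from 0.11 to 0.02. Some of the values that were kept could hardly move. Each of the other totals shifts every log2 difference by the same small amount, so its 18 values were bound to stay close. The median scaling lowers every log2 difference at day 5 by the same 0.08. Its values could thus change side, but none could move beyond the tolerance. Pairs that share no exon base with another gene are unchanged by unshared exon length, such as *COX4L* and *COX4* (30.6 at day 0 both ways). The count of pairs above 1 and the summed percentage stayed within 1.5 times under each alternative run, and the 9 listed members were listed with a mean of at least 10. Neither the count, of at most 9, nor the percentage had room to rise by 1.5 times, so this tolerance is a weak check of both. The ratio of *SdhAL* to *SdhA* without length was 0.999, 0.858 and 0.785 on days 0, 1 and 5, by coding length 0.871 and 0.797 on days 1 and 5, and by unshared exon length, an alternative chosen after seeing the data, 0.991 at day 5. Scaled by the median ratio between days, the log2 difference of day 5 from day 0 was -0.027 for both *Cyt-c-d* and *SdhBL* and -0.013 for *SdhA*. Depth could not be used to rank the values by reliability, and lengths come from an annotation that may differ from the authors'.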

Other observations

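For 3 other L-named subunit genes the symbol without the L was not listed. General paralogs under other symbols were not searched for. The listed general subunits do include genes named otherwise, such as *levy* (complex IV) and *sun* (complex V), which were not set against these genes. *ATPsynepsilonL* was at 90.4 ppm of the per-length share at day 1 and 162 at day 5, a log2 difference of 0.81 between days 5 and 0, and 96.1% of genes had a smaller one. *UQCR-14L* was at 524 at day 0 and 386 at day 3, a log2 difference of -0.44, and 8.05% of genes had a smaller one. *COX6AL* stayed between 407 and 447 ppm. These genes encode paralogs of an ATP synthase, a complex III and a complex IV subunit.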
